A study of Petunia x hybrida with 12 samples.

Results

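The genes described here are the 146 of the 32928 predicted petunia genes that the annotation marks as chitinases, PR10-type proteins or other defense proteins. The rule uses annotation terms and no expression value, and the terms were picked with earlier results of these data known. A gene was taken when its gene ontology (GO) terms include chitinase activity (24 genes) or catabolism of cell wall macromolecules (42 genes), when its GO entry is exactly the pair defense response and response to biotic stimulus (39 genes), or when its description names chitinase (34 genes), thaumatin (29 genes) or pathogenesis-related protein (35 genes), and 1 gene can meet several of these. Protein signatures divide them into 38 chitinases, 39 PR10-type genes, 29 thaumatin-like genes, 23 genes with a LysM domain, 11 genes of the CAP/PR1 family and 6 others. The chitinases fall into 14 glycosyl hydrolase family 18 (GH18) genes of class III, 10 GH18 genes of class V, and 14 genes of family GH19. Of the 146 members, 116 reached a mean of 10 reads in at least 1 group and were tested, 4 had no read in any library, and the other untested members had 1 to 49 reads over the 12 libraries.

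Roots of Petunia hybrida were compared in 4 groups of 3 libraries each, all harvested on day 15. The wild type (WT) is the line W115 and the mutant is ram1-2 (ram1), which carries a mutant allele of RAM1, a GRAS transcription factor gene required for arbuscule formation. In each line, mycorrhizal roots carried the arbuscular mycorrhizal (AM) fungus Rhizophagus irregularis (strain MUCL 43204), given through nurse plants, and control roots were not inoculated. A single mutant line stands for the mutation, and whether it differs from W115 only at RAM1 is not given in the sources used here, so the mutation and other differences between the lines cannot be told apart. The values come from whole roots, in which fewer cells of a type and less RNA per cell cannot be told apart. The authors report a smaller share of fungal reads in mycorrhizal ram1 roots than in mycorrhizal WT roots. Mean colonization was also somewhat lower in ram1, within the spread they give. The comparisons of the lines below were not adjusted for the amount of fungus.

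Libraries held 7152267 to 13391147 gene reads, with the lowest total in ram1 mycorrhizal replicate 2. RAM1 itself was at 109 to 128.6 CPM in mycorrhizal WT roots (reads per 1000000, after scaling of library sizes), at 6.07 to 8.63 CPM in mycorrhizal ram1 roots, and at 0.0813 to 0.335 CPM in controls. The arbuscule marker PT4, a phosphate transporter gene, was at 546 to 651 CPM in mycorrhizal WT roots and at 3.08 to 10.0 CPM in mycorrhizal ram1 roots, while VAPYRIN, which acts earlier in colonization, was at 133 to 149 and at 44.3 to 60.7 CPM. WT control replicate 1 had 26.0 CPM of PT4. Genes of the Casparian strip and of root hairs were read in every library, and the summed level of shoot genes was 51.7 to 142 CPM, with the 3 highest sums in mycorrhizal WT roots. Their part in the results below was not tested.

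Chitin is a structural polymer of fungal cell walls. Plant chitinases cut it, both as secreted weapons against pathogens and, in roots with AM, as enzymes that may shorten chitin fragments that would otherwise act as alarm signals. GH18 and GH19 enzymes have unrelated folds, and class III genes of GH18 are known from Medicago truncatula to be expressed in cells with arbuscules. PR10 proteins are small cytosolic proteins with the fold of the birch pollen allergen Bet v 1, which holds a hydrophobic ligand. The family includes the major latex-like proteins (MLP) and norcoclaurine synthase, an enzyme of alkaloid synthesis in poppy and its relatives. Thaumatin-like proteins (PR5) and CAP proteins (PR1) are secreted proteins that accumulate after pathogen attack, and LysM domains bind chitin and related sugars.

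In mycorrhizal WT roots, 14 of the 29 tested chitinases rose, with fitted log2 fold changes of 1.63 and more. None fell in the edgeR test, against 3 lower at an unadjusted p under 0.05 and 1 lower with DESeq2. Among all 22954 genes tested, 12.6% rose and 9.14% fell in this comparison. Class III of GH18 had the highest share, with 8 of 12 tested genes higher, followed by class V with 4 of 9 and GH19 with 2 of 8. PR10-type genes rose in 10 of 31 cases and fell in 2, and LysM genes rose in 6 of 22 cases and fell in 2. Of the thaumatin-like genes 1 of 23 rose and 2 fell. Of the 6 tested CAP/PR1 genes 0 rose with edgeR, at an unadjusted p under 0.05 or with DESeq2, and 1 fell. The median log2 fold change was 1.63 over the chitinases, 7.10 over the class III genes and 0.31 over the PR10-type genes, against -0.002 over all genes tested. Tests were edgeR quasi-likelihood tests with Benjamini-Hochberg adjustment over all genes tested, called at an adjusted p under 0.05.

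**Figure D1:**
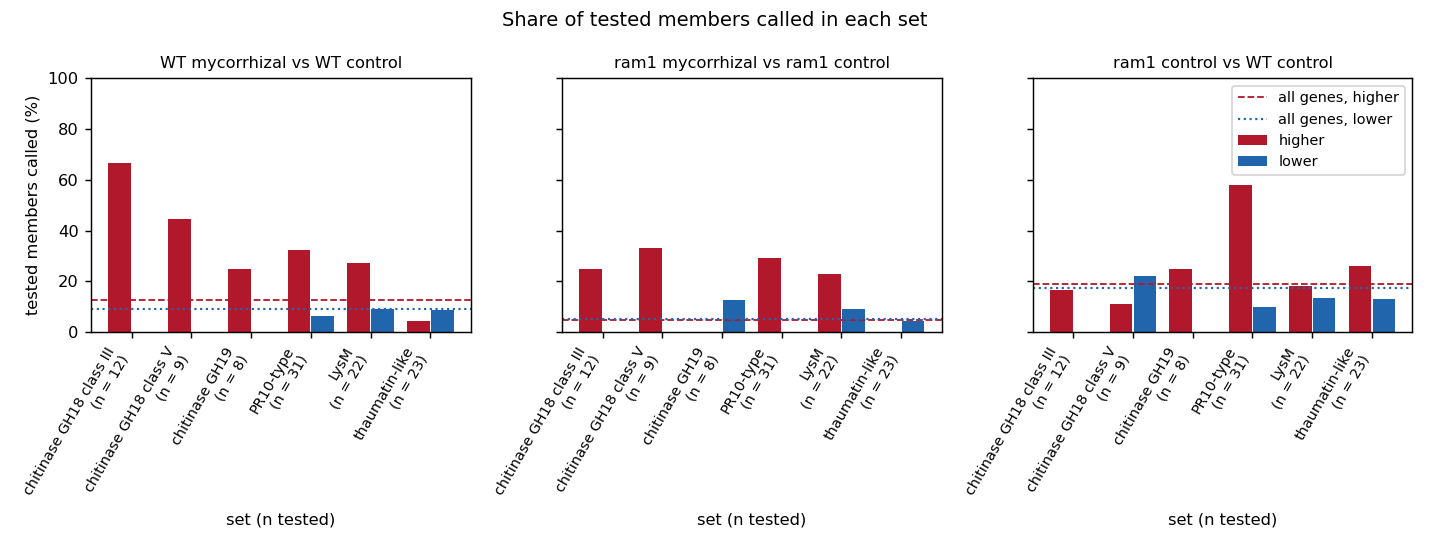
Bars give the percent of tested members of each set that were called higher (red) or lower (blue) in 3 comparisons, and the dashed and dotted lines give the percent of all 22954 tested genes called higher and lower. GH18 class III stands highest in WT mycorrhizal against WT control (8 of 12), and PR10-type genes stand highest between the control roots of the 2 lines (18 of 31).

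The 8 class III genes that rose in WT were at or below 1.11 CPM in every control library. Of these, 7 reached 36.5 to 202 CPM in each mycorrhizal WT library, and Peaxi162Scf00836g00039.1 reached 14.1, 8.97 and 13.1 CPM. The highest in CPM was Peaxi162Scf00616g00612.1, described as Chitinase 2, with 0.0813, 0.335 and 0.0783 CPM in WT controls and 180.1, 202 and 199.9 CPM in mycorrhizal WT roots (log2 fold change 10.13 ± 0.39 SE at adjusted p = 2.02e-08). In the ram1 line it had 0.0821, 0 and 0.148 CPM in controls and 12.2, 20.0 and 20.9 CPM in mycorrhizal roots (log2 fold change 7.64 ± 0.44 SE at adjusted p = 2.55e-06). The fold changes were larger without WT control replicate 2 (11.06 in WT) and without ram1 control replicate 3 (8.45 in ram1). The mycorrhizal libraries of both lines thus lay above all controls, and those of ram1 lay below those of WT.

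Its neighbour on the same scaffold, Peaxi162Scf00616g00611.1, also Chitinase 2, was likewise higher in all mycorrhizal libraries. It went from 0.0813, 0.0838 and 0 CPM to 88.8, 97.6 and 93.2 CPM in WT, a ratio of 1726-fold (95% counting interval 477 to 14260). In ram1 it went from 0.246, 0.308 and 0.223 CPM to 10.6, 28.0 and 24.7 CPM (log2 fold change 6.28 ± 0.44 SE at adjusted p = 1.07e-05). Another Chitinase 2 gene, Peaxi162Scf00589g00225.1, had 1 read over the 3 WT control libraries and 95.7, 76.0 and 95.8 CPM in mycorrhizal WT roots. It reached 3.27, 7.78 and 6.78 CPM in mycorrhizal ram1 roots, a rise of 107-fold (95% counting interval 29.2 to 893) over ram1 controls. These 3 were the class III genes that rose in ram1 as well, and ram1 mycorrhizal replicate 1 was the lowest of its group for each of them. The rise in mean CPM in ram1 was 22.4% of the rise in WT for Peaxi162Scf00616g00611.1, 9.09% for Peaxi162Scf00616g00612.1 and 6.61% for Peaxi162Scf00589g00225.1.

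The other 5 class III genes rose in WT and were not called in ram1. The acidic endochitinase gene Peaxi162Scf01254g00005.1 went from 0.0813, 0.0838 and 0 CPM in WT controls to 117, 86.7 and 107 CPM in mycorrhizal WT roots. It had 0.0778, 0 and 0.181 CPM in mycorrhizal ram1 roots. Its response differed between the lines (log2 fold change -9.86 ± 1.77 SE at adjusted p = 0.00740, ram1 minus WT), a call that was lost without ram1 control replicate 2 (adjusted p = 0.0556) and a value that was -10.71 without ram1 mycorrhizal replicate 3. The Chitinase 2 gene Peaxi162Scf00411g00083.1 had 77.3, 51.6 and 47.0 CPM in mycorrhizal WT roots, against 0.244, 0.587 and 0.235 CPM in WT controls. In ram1 it had 0.985, 0.770 and 1.11 CPM in controls and 1.40, 1.56 and 1.54 CPM in mycorrhizal roots. Its response also differed (log2 fold change -6.70 ± 0.47 SE at adjusted p = 1.54e-05). The mycorrhizal ram1 libraries of Peaxi162Scf00411g00083.1 lay just above the ram1 controls, and a change in ram1 was not called (log2 fold change 0.63 ± 0.32 SE at adjusted p = 0.210).

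The remaining 3 lie together on scaffold 836 and all are described as Chitinase 2. Peaxi162Scf00836g00311.1 reached 68.9, 37.0 and 36.5 CPM and Peaxi162Scf00836g00035.1 49.8, 38.7 and 36.7 CPM in mycorrhizal WT roots. In mycorrhizal ram1 roots they had 0.622, 0.141 and 0 CPM and 0, 0.283 and 0 CPM. Peaxi162Scf00836g00039.1 had no read outside mycorrhizal WT roots, where it was at least 148-fold higher than a floor of 3 reads over the control group. Only 8.00% of the reads of Peaxi162Scf00836g00035.1 and 12.0% of those of Peaxi162Scf00836g00311.1 mapped to a single gene, so that this pair cannot be separated. Even so, unique reads alone gave the same call in WT for both. The difference in response of Peaxi162Scf00836g00035.1 was lost under 10 of 17 alternative settings, unique reads among them. Scaffold 616 holds a pair and scaffold 836 a trio of these genes, and in ram1 the pair was called and the trio was not.

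Among the GH18 genes of class V, the pair Peaxi162Scf00347g00041.1 and Peaxi162Scf00347g00043.1 on scaffold 347 had 2 and 1 reads over the WT control libraries. In mycorrhizal WT roots they had 159, 162.4 and 181 CPM and 111, 117 and 119 CPM, ratios of 3113-fold (95% counting interval 861 to 25710) and 4302-fold (95% counting interval 772 to 170000). In mycorrhizal ram1 roots they had 1.01, 0.424 and 0.995 CPM and 0.778, 0.424 and 0.362 CPM, and both were called higher than ram1 controls (adjusted p = 0.00320 and 0.0121). That rise was 0.452% and 0.426% of the rise in WT. Peaxi162Scf00177g00093.1, described as chitinase-like protein 3, was read at 5.71, 5.78 and 5.73 CPM in mycorrhizal WT roots and had 1 read in all other libraries together.

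Scaffold 347 holds 7 class V genes and 2 PR10-type genes. Peaxi162Scf00347g00418.1, described as a cysteine-rich receptor-like kinase and annotated with a GH18 domain, rose in WT from 54.2, 21.9 and 47.1 to 157, 170.0 and 152 CPM (log2 fold change 1.96 ± 0.29 SE at adjusted p = 6.36e-04). The ram1 libraries had 84.9, 63.1 and 77.2 CPM in controls and 81.6, 126 and 92.5 CPM in mycorrhizal roots, which was not called (log2 fold change 0.41 ± 0.28 SE at adjusted p = 0.338). Its difference in response was lost under 8 of 17 alternative settings, among them without any 1 of WT mycorrhizal replicates 1, 2 and 3, ram1 control replicates 1 and 2 or ram1 mycorrhizal replicates 1 and 3 (adjusted p 0.0502 to 0.0794). Peaxi162Scf00347g00420.1, described as chitinase-3-like protein 2, was not called in WT (log2 fold change -0.74 ± 0.33 SE at adjusted p = 0.135), with 63.5, 63.0 and 71.8 CPM in controls and 38.4, 41.8 and 38.3 CPM in mycorrhizal roots. In ram1 it had 12.7, 8.86 and 22.5 CPM in controls and 38.8, 43.6 and 85.1 CPM in mycorrhizal roots. It rose in ram1 (log2 fold change 1.93 ± 0.34 SE at adjusted p = 0.0100) and was lower in ram1 controls than in WT controls (log2 fold change -2.17 ± 0.34 SE at adjusted p = 5.77e-04). It is the 1 chitinase whose response was higher in ram1 than in WT (log2 fold change 2.67 ± 0.47 SE at adjusted p = 0.00692). With only the 6 ram1 libraries in the fit, its rise in ram1 was not called (adjusted p = 0.0780).

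GH19 chitinases, the classical basic and acidic defense enzymes, included the most abundant chitinase transcripts, and these were present with or without the fungus. On the authors' RPKM scale, which corrects for transcript length, Endochitinase A Peaxi162Scf00875g00019.1 had a mean of 1364 RPKM in WT controls and 771 RPKM in mycorrhizal WT roots. The most abundant class III gene of mycorrhizal WT roots, Peaxi162Scf00616g00612.1, had 209.9 RPKM there. The CPM values of Peaxi162Scf00875g00019.1 in WT were 1967, 736 and 1347 in controls and 818, 859.8 and 612 in mycorrhizal roots, overlapping and not called (log2 fold change -0.82 ± 0.36 SE at adjusted p = 0.134). Peaxi162Scf00286g00022.1 was likewise not called in WT (log2 fold change 0.42 ± 0.28 SE at adjusted p = 0.333).

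The GH19 genes that rose in WT started from a measurable level. Peaxi162Scf00568g00520.1 went from 16.9, 14.2 and 25.1 to 125, 113 and 95.4 CPM (log2 fold change 2.57 ± 0.27 SE at adjusted p = 5.19e-05). The ram1 libraries had 12.1, 12.8 and 17.7 CPM in controls and 12.5, 21.8 and 22.5 CPM in mycorrhizal roots, and its response differed between the lines (log2 fold change -2.16 ± 0.37 SE at adjusted p = 0.00584). Peaxi162Scf00580g00512.1 went from 23.7, 13.6 and 16.6 to 64.1, 59.3 and 43.2 CPM (log2 fold change 1.63 ± 0.42 SE at adjusted p = 0.0179). That second call was lost when WT control replicate 2 or 3 or WT mycorrhizal replicate 1 or 2 was left out, with an adjusted p of 0.0534 to 0.0670. Peaxi162Scf00286g10022.1 is the 1 chitinase called lower in mycorrhizal ram1 roots (log2 fold change -0.81 ± 0.17 SE at adjusted p = 0.0211), and the call was lost with only the 6 ram1 libraries and without ram1 control replicate 1 or 2 or ram1 mycorrhizal replicate 2 or 3 (adjusted p 0.0645 to 0.0828). In WT it had 441, 435 and 448 CPM in controls and 363, 388 and 274 CPM in mycorrhizal roots. These groups did not overlap, but a change in WT was not called.

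**Figure D2:**
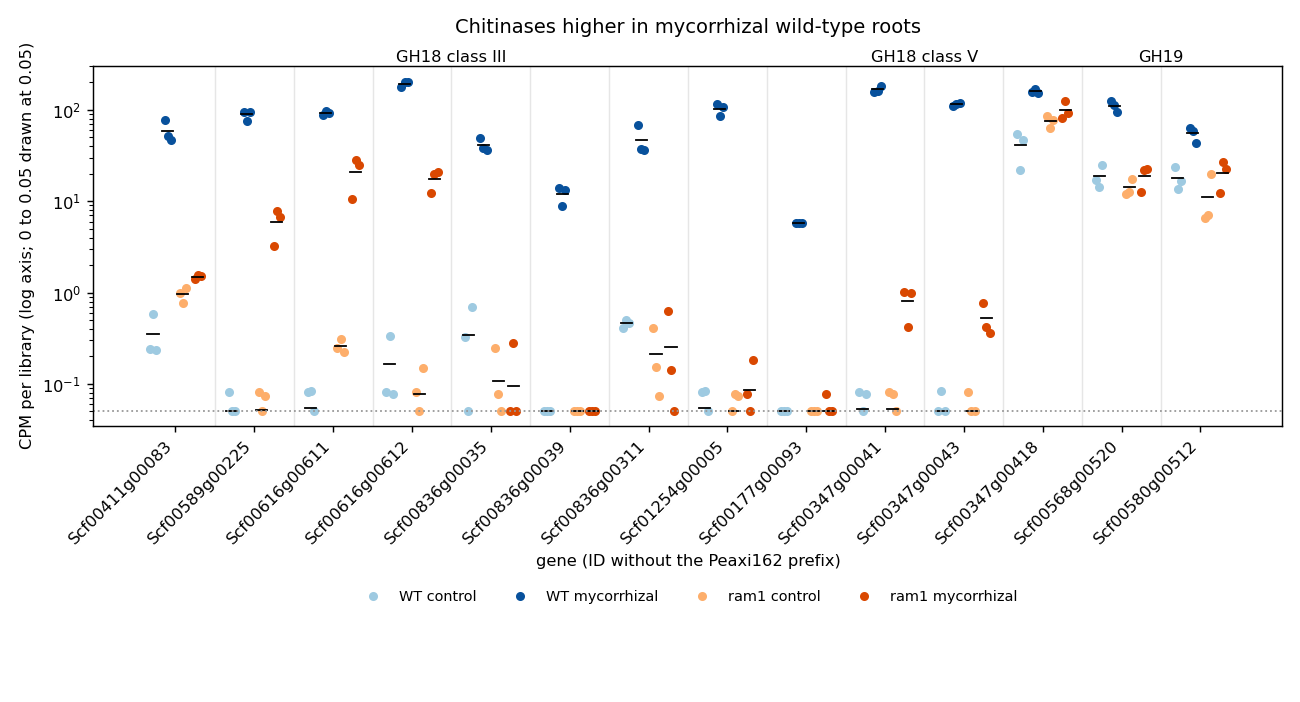
Each point is the CPM of 1 library on a log axis, black bars are group means, and the dotted line marks where values of 0 to 0.05 CPM are drawn, for the 14 chitinases called higher in WT mycorrhizal roots. The GH18 genes other than Scf00347g00418 lie near or below 1 CPM in WT controls, the 2 GH19 genes start above 10 CPM there, and all 14 are higher in mycorrhizal WT roots.

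In mycorrhizal ram1 roots, 6 of 29 tested chitinases rose and 1 fell, where 4.91% of all genes tested rose and 5.17% fell. The 6 were 3 class III genes, 3 class V genes and no GH19 gene (0 of 8 also at an unadjusted p under 0.05 and with DESeq2), and 5 of them had also risen in WT. The count depended on single libraries, as did that over all genes, where 1126 rose and 1187 fell. In all, 3914 genes were called without ram1 control replicate 3, 3548 without ram1 mycorrhizal replicate 1, and 561 to 700 without ram1 control replicate 1 or 2 or ram1 mycorrhizal replicate 2 or 3. For chitinases, without ram1 control replicate 3 it was 10 higher and 1 lower, the added calls being Peaxi162Scf00078g01219.1, Peaxi162Scf01261g00011.1, Peaxi162Scf00580g00512.1 and Peaxi162Scf00347g00419.1. With only the 6 ram1 libraries in the fit it was 3 higher and 0 lower. There Peaxi162Scf00347g00041.1 and Peaxi162Scf00347g00043.1 fell below the minimum of 10 reads and were not tested, and Peaxi162Scf00347g00420.1 was not called. The response differed between the lines for 9 chitinases, lower in ram1 for 8 and higher for 1, where 4.03% of all genes tested were higher and 5.17% lower. When ram1 control replicate 1 or ram1 control replicate 2 was left out, 4 chitinases were called, 3 lower and 1 higher. Several of these genes have only a few reads in a whole control group.

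PR10-type genes were the next set by share called in WT. The highest in CPM of those that rose was Peaxi162Scf00553g00623.1, described as Major pollen allergen Bet v 1-M/N, with 0.975, 0.922 and 0.783 CPM in WT controls and 1757, 1869 and 2032 CPM in mycorrhizal WT roots (log2 fold change 11.03 ± 0.50 SE at adjusted p = 5.68e-08). The change in ram1 was from 0.0821, 0.462 and 0.965 to 130.4, 273 and 252 CPM (log2 fold change 8.70 ± 0.48 SE at adjusted p = 2.07e-06, or 9.57 without ram1 control replicate 3). All mycorrhizal libraries lay far above all controls, and those of ram1 below those of WT. At 3920 RPKM in mycorrhizal WT roots it stood above the MLP-like gene Peaxi162Scf00723g00026.1, the most abundant PR10-type gene of the control roots, which had 4602 RPKM in WT controls and 2311 RPKM in mycorrhizal WT roots.

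Peaxi162Scf00332g00123.1, described as Bet v 1-B, went from 0.163, 0.0838 and 0.0783 to 639, 649.8 and 748 CPM in WT. In ram1 it went from 0.246, 0.154 and 0 to 45.4, 96.5 and 90.3 CPM (log2 fold change 9.11 ± 0.48 SE at adjusted p = 1.50e-06, or 9.81 without ram1 control replicate 1). The norcoclaurine synthase-like gene Peaxi162Scf00347g00919.1, which shares scaffold 347 with the class V chitinases, went from 12.6, 18.5 and 17.2 to 659, 678 and 754 CPM in WT (log2 fold change 5.44 ± 0.30 SE at adjusted p = 2.97e-07). The change in ram1 was from 6.48, 5.16 and 6.60 to 75.2, 173 and 138 CPM (log2 fold change 4.40 ± 0.30 SE at adjusted p = 7.99e-06). For neither of these, nor for Peaxi162Scf00553g00623.1, was the response called different between the lines by edgeR (adjusted p = 0.102, 0.108 and 0.0649). DESeq2 called Peaxi162Scf00332g00123.1 and Peaxi162Scf00553g00623.1 lower in ram1 (adjusted p = 0.0131 and 0.00182). The share of reads that mapped to a single gene was 70.8% for Peaxi162Scf00553g00623.1 and 71.0% for Peaxi162Scf00332g00123.1, and unique reads kept the calls in WT and in ram1.

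Scaffold 73 holds 4 genes described as Bet v 1-M/N, of which 3 were tested and all 3 rose in both lines. Peaxi162Scf00073g00917.1 went from 1.22, 0.335 and 0.235 to 51.6, 45.3 and 63.2 CPM in WT. In ram1 it went from 1.64, 2.70 and 3.56 to 11.7, 27.5 and 22.2 CPM, and its response differed (log2 fold change -3.53 ± 0.67 SE at adjusted p = 0.00899). Peaxi162Scf00073g01326.1 went from 0.488, 0.0838 and 0.0783 to 30.8, 25.6 and 28.2 CPM in WT. The change in ram1 was from 0.739, 0.539 and 1.04 to 4.75, 8.35 and 8.59 CPM, and its response differed as well (log2 fold change -3.76 ± 0.65 SE at adjusted p = 0.00593). Peaxi162Scf00073g01323.1 reached 15.5, 12.3 and 12.1 CPM in mycorrhizal WT roots and 1.24, 4.10 and 3.62 CPM in mycorrhizal ram1 roots. Without WT control replicate 1 the differences in response of Peaxi162Scf00073g00917.1 and Peaxi162Scf00073g01326.1 were -4.61 and -5.11 on the log2 scale. All mycorrhizal ram1 libraries lay below all mycorrhizal WT libraries for these 3 genes. The untested Peaxi162Scf00073g01324.1 had 0.335 CPM at most.

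A pair of norcoclaurine synthase-like genes lie on scaffold 372. Peaxi162Scf00372g00122.1 went from 0.813, 1.26 and 0.548 to 53.1, 65.3 and 53.6 CPM in WT. In ram1 it went from 0.657, 0.924 and 0.890 to 7.0, 15.1 and 11.1 CPM, and both changes were called. The difference in response (log2 fold change -2.32 ± 0.49 SE at adjusted p = 0.0155) was not called without ram1 control replicate 2 (adjusted p = 0.0535). Peaxi162Scf00372g00127.1 went from 17.2, 17.7 and 15.1 to 89.5, 75.9 and 18.2 CPM in WT (log2 fold change 1.88 ± 0.49 SE at adjusted p = 0.0195), with WT mycorrhizal replicate 3 near the controls. Its call was lost when any 1 of WT control replicates 1, 2 and 3 or WT mycorrhizal replicates 1 and 2 was left out (adjusted p 0.0564 to 0.0787).

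Peaxi162Scf00068g02416.1, an undescribed PR10-type gene, had the largest rise in ram1 relative to WT of the 10 genes, 105% of the rise in WT on the CPM scale. It went from 3.74, 2.68 and 3.76 to 14.2, 16.3 and 19.4 CPM in WT (log2 fold change 2.29 ± 0.21 SE at adjusted p = 1.76e-05). The change in ram1 was from 8.95, 7.55 and 5.34 to 20.1, 21.2 and 22.2 CPM (log2 fold change 1.54 ± 0.20 SE at adjusted p = 0.00120). Peaxi162Scf00575g00710.1, described as a relative of the pollen allergen Car b 1 and named after its values were seen, was read in mycorrhizal ram1 roots at 10.3, 33.1 and 19.3 CPM, with 1 read over all other libraries. It was at least 241-fold higher there than in ram1 controls and at least 224-fold higher than in mycorrhizal WT roots. The edgeR test did not call its response different between the lines (adjusted p = 0.121), while DESeq2 did (adjusted p = 8.49e-06).

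**Figure D3:**
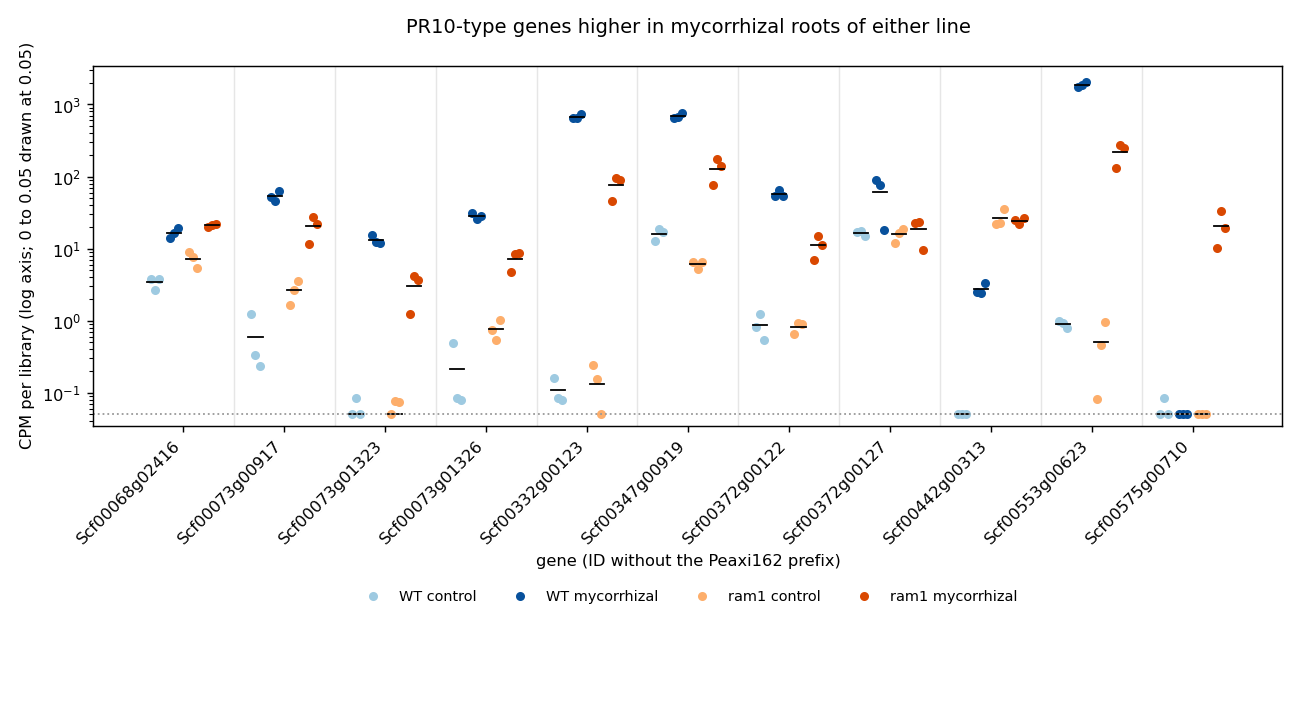
CPM of each library on a log axis, with black bars at group means and the dotted line where values of 0 to 0.05 CPM are drawn, for the 11 PR10-type genes called higher in mycorrhizal roots of either line. In 8 of the 10 genes higher in WT the ram1 line was called higher too, Scf00442g00313 is high in both ram1 groups, and Scf00575g00710 is read in mycorrhizal ram1 roots.

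Over the set, 9 of 31 tested PR10-type genes rose in mycorrhizal ram1 roots and 0 fell in the edgeR test, against 6 lower at an unadjusted p under 0.05 and 3 lower with DESeq2. The 9 include 8 of the 10 that rose in WT. Without ram1 mycorrhizal replicate 1 the counts were 10 higher and 5 lower, the 5 being Peaxi162Scf00723g00026.1, Peaxi162Scf00253g00099.1, Peaxi162Scf00198g00148.1, Peaxi162Scf00159g01636.1 and Peaxi162Scf00104g00614.1, of which Peaxi162Scf00198g00148.1 and Peaxi162Scf00104g00614.1 were named after their values were seen. The response differed for 4 PR10-type genes with edgeR, all lower in ram1, and for 7 with DESeq2, 6 lower and 1 higher. Among the genes that rose in WT, the rise in mean CPM in ram1 was 18.1% of that in WT at the median of the 10 PR10-type genes and 0.691% at the median of the 14 chitinases. It was under 5% for 8 of the 14 chitinases and over 10% for 8 of the 10 PR10-type genes. The genes were chosen by their call in WT, which by itself tends to lower these percentages. Some of the chitinases passed the read filter only through mycorrhizal WT roots. Peaxi162Scf00836g00035.1 and Peaxi162Scf00836g00311.1 are counted apart though their reads cannot be separated. These percentages are a description of the means, and the difference between the sets was not tested.

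**Figure D4:**
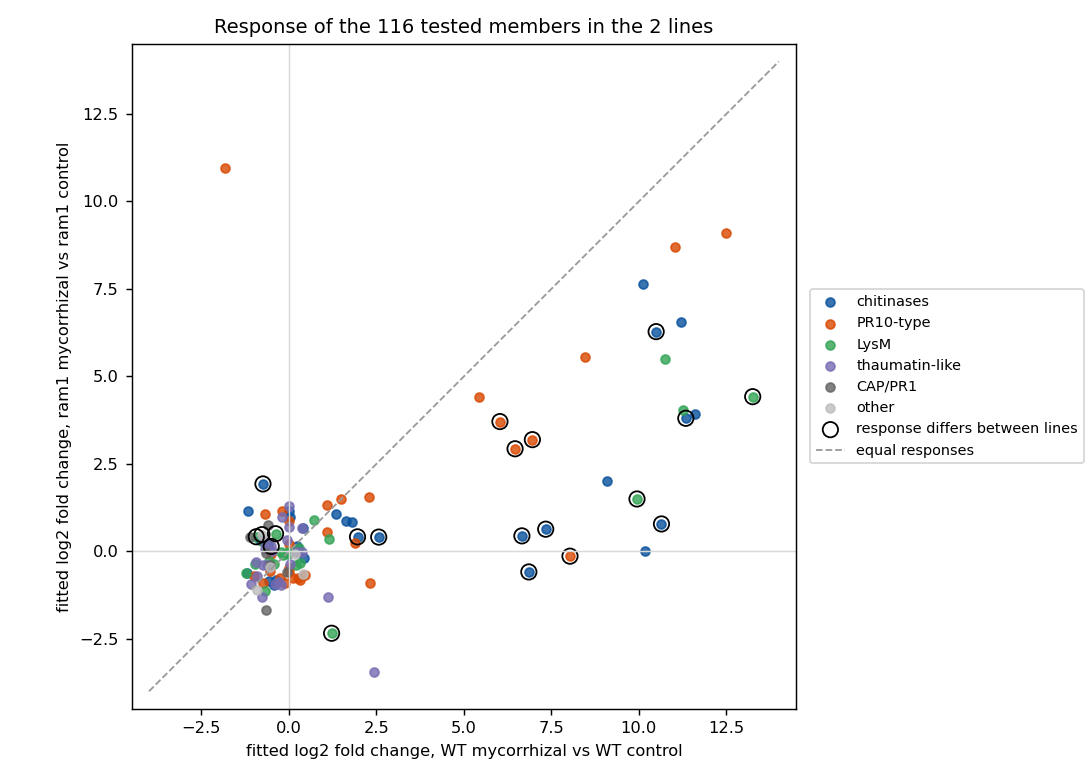
Fitted log2 fold changes of the 116 tested members in WT (horizontal axis) and in ram1 (vertical axis), colored by set, with the 20 members whose response was called different between the lines circled and a dashed line at equal responses. Fitted values of genes with almost no control reads depend on the prior count. Most members with a large response in WT lie below the dashed line, and 1 PR10-type gene, Scf00575g00710, lies high in ram1 alone.

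The PR10-type genes that fell in WT were Peaxi162Scf00723g00026.1 and Peaxi162Scf00815g00017.1, whose call at an adjusted p of 0.0498 was lost under 10 of 18 alternative settings. Peaxi162Scf00723g00026.1, MLP-like protein 28, fell in WT from 4036, 3564 and 4698 to 2412, 1888 and 1867 CPM (log2 fold change -0.996 ± 0.23 SE at adjusted p = 0.00987). In ram1 it had 5144, 3636 and 3990 CPM in controls and 3472, 2201 and 2127 CPM in mycorrhizal roots (log2 fold change -0.71 ± 0.23 SE at adjusted p = 0.0698). By description, 1 of 10 tested MLP-like genes rose in WT, against 5 of 10 pollen allergen-like genes and 3 of 4 norcoclaurine synthase-like genes. The MLP-like gene that rose, Peaxi162Scf00442g00313.1, had no read in WT controls and 2.49, 2.43 and 3.28 CPM in mycorrhizal WT roots. The ram1 libraries had 21.8, 22.8 and 35.7 CPM in controls and 24.7, 21.7 and 26.6 CPM in mycorrhizal roots.

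Control roots of the lines differed at many PR10-type genes. Of 31 tested, 18 were higher and 3 lower in ram1 controls than in WT controls, where 18.8% of all genes tested were higher and 17.5% lower. The median log2 fold change was 1.79, against 0.024 over all genes tested. Of the 10 MLP-like genes, 8 were higher and 1 lower. Chitinases were higher in 5 of 29 cases and lower in 2, and with only the 6 control libraries in the fit they were higher in 2 and lower in 2. There Peaxi162Scf01254g00009.1 fell below the minimum of 10 reads and was not tested.

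Peaxi162Scf00253g00099.1, an undescribed PR10-type gene, had 2.93, 1.68 and 3.05 CPM in WT controls and 453, 286 and 370.2 CPM in ram1 controls (log2 fold change 7.17 ± 0.57 SE at adjusted p = 4.04e-06). In mycorrhizal roots it had 4.61, 3.02 and 1.60 CPM in WT and 380.2, 143 and 124 CPM in ram1. Peaxi162Scf00198g00148.1, MLP-like protein 28, had 306, 201 and 336 CPM in WT controls and 1702, 1022 and 975 CPM in ram1 controls (log2 fold change 2.13 ± 0.32 SE at adjusted p = 3.76e-04). The libraries of the lines did not overlap for either gene. Only 62.4% of the reads of Peaxi162Scf00198g00148.1 mapped to a single gene. Peaxi162Scf00364g00045.1, Peaxi162Scf00924g00013.1 and Peaxi162Scf00471g00102.1 had no read in any of the 6 WT libraries and were read in all 6 ram1 libraries, at 5.09 to 11.4, 5.32 to 8.68 and 1.09 to 3.08 CPM. The last of these was also named after its values were seen.

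Peaxi162Scf00005g02811.1, MLP-like protein 28, went the other way, with 104, 261 and 146 CPM in WT controls and 8.21, 6.24 and 5.79 CPM in ram1 controls (log2 fold change -4.66 ± 0.32 SE at adjusted p = 1.57e-06). On the same scaffold, Peaxi162Scf00005g02513.1, named after its values were seen, was higher in ram1, with 49.4, 33.9 and 20.1 and 434, 268 and 278 CPM (log2 fold change 3.24 ± 0.34 SE at adjusted p = 3.04e-05). The share of their reads that mapped to a single gene was 69.5% and 66.8%, so that reads of related copies may be shared. The counts of MLP-like and PR10-type genes above take such copies as separate genes. All libraries were mapped by the authors to transcripts of Petunia axillaris at a similarity of 0.9, and differences between alleles of the lines in how well they map were not tested.

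In mycorrhizal roots, ram1 lay above WT for 14 PR10-type genes and below for 9 of the 31, where 26.7% of all genes tested were higher and 25.9% lower. For chitinases the split was 6 higher and 14 lower of 29. Of the 14 chitinases that rose in WT, 13 were among those lower in mycorrhizal ram1 than in mycorrhizal WT roots, the exception being Peaxi162Scf00347g00418.1 (log2 fold change -0.68 ± 0.28 SE at adjusted p = 0.0601). The 14 were chosen for being higher in these same mycorrhizal WT libraries, which by itself tends to place them above ram1, so the count of 13 is no separate result. The comparisons within the lines use the same mycorrhizal libraries, so these values are not independent of the differences in response.

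A GH19 and a CAP/PR1 gene, both abundant, were higher in the ram1 line and varied between its replicates. Between the control roots 1 of 6 tested CAP/PR1 genes was higher in ram1 and 2 were lower, where 18.8% of all genes tested were higher and 17.5% lower. Among the lower was Peaxi162Scf00016g03348.1, on the same scaffold, with 342, 133 and 278 CPM in WT controls and 63.0, 125 and 66.5 CPM in ram1 controls. The GH19 gene Peaxi162Scf00078g01219.1 had 251, 123 and 141 CPM in WT controls and 173, 206 and 151 CPM in mycorrhizal WT roots. In ram1 it had 327, 439 and 2058 CPM in controls and 1081, 2325 and 2174 CPM in mycorrhizal roots. The CAP/PR1 gene Peaxi162Scf00016g00332.1 had 364, 194 and 211 CPM in WT controls and 128, 228 and 150.3 CPM in mycorrhizal WT roots. The ram1 libraries had 409, 857 and 2055 CPM in controls and 1126, 2674 and 1782 CPM in mycorrhizal roots. Ram1 control replicate 3 stood apart from the other ram1 controls for both and lay within the range of the mycorrhizal ram1 roots. Both genes were higher in ram1 controls than in WT controls (log2 fold change 2.45 ± 0.63 SE at adjusted p = 0.0107 for the first and log2 fold change 2.11 ± 0.54 SE at adjusted p = 0.0105 for the second). Each call held under all 18 alternative settings, but the fold changes were smaller without ram1 control replicate 3 (log2 fold change 1.16 at adjusted p = 0.0313 for the first and 1.30 at adjusted p = 0.0408 for the second). Some other abundant members, namely Peaxi162Scf00875g00019.1, Peaxi162Scf00286g00022.1, Peaxi162Scf00286g10022.1 and Peaxi162Scf00714g00014.1, overlapped between the control groups and were not called there (adjusted p = 0.561, 0.704, 0.768 and 0.503). Abundant PR10-type genes were higher in ram1 controls without overlap. Peaxi162Scf00723g00019.1 had 593, 324 and 586 CPM in WT controls and 1456, 957 and 1352 CPM in ram1 controls. For Peaxi162Scf00159g00156.1 the values were 622, 256 and 396 CPM in WT controls and 1270, 868 and 1070 CPM in ram1 controls.

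Neither the GH19 gene Peaxi162Scf00078g01219.1 nor the CAP/PR1 gene Peaxi162Scf00016g00332.1 was called in mycorrhizal against control ram1 roots (log2 fold change 0.98 ± 0.60 SE at adjusted p = 0.295 for the first and log2 fold change 0.75 ± 0.52 SE at adjusted p = 0.358 for the second). Without ram1 control replicate 3 both were called higher (log2 fold change 2.28 and 1.55, adjusted p = 0.00603 and 0.0450). The thaumatin-like gene Peaxi162Scf00714g00017.1 was also higher in ram1 controls, at 199.6, 101 and 198 CPM in WT controls and 516, 829.8 and 1187 CPM in ram1 controls (log2 fold change 2.34 ± 0.37 SE at adjusted p = 5.22e-04). Peaxi162Scf00347g00056.1, described as chitinase-3-like protein 1, had 0.821, 20.6 and 52.0 CPM in ram1 controls and 5.91, 49.0 and 29.9 CPM in mycorrhizal ram1 roots, with replicate 1 the lowest of each group, and was not called between controls (adjusted p = 0.0586). The median coefficient of variation of members over 10 CPM was 22.9% in ram1 controls and 30.1% in mycorrhizal ram1 roots, against 21.5% and 13.1% in the WT groups.

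**Figure D5:**
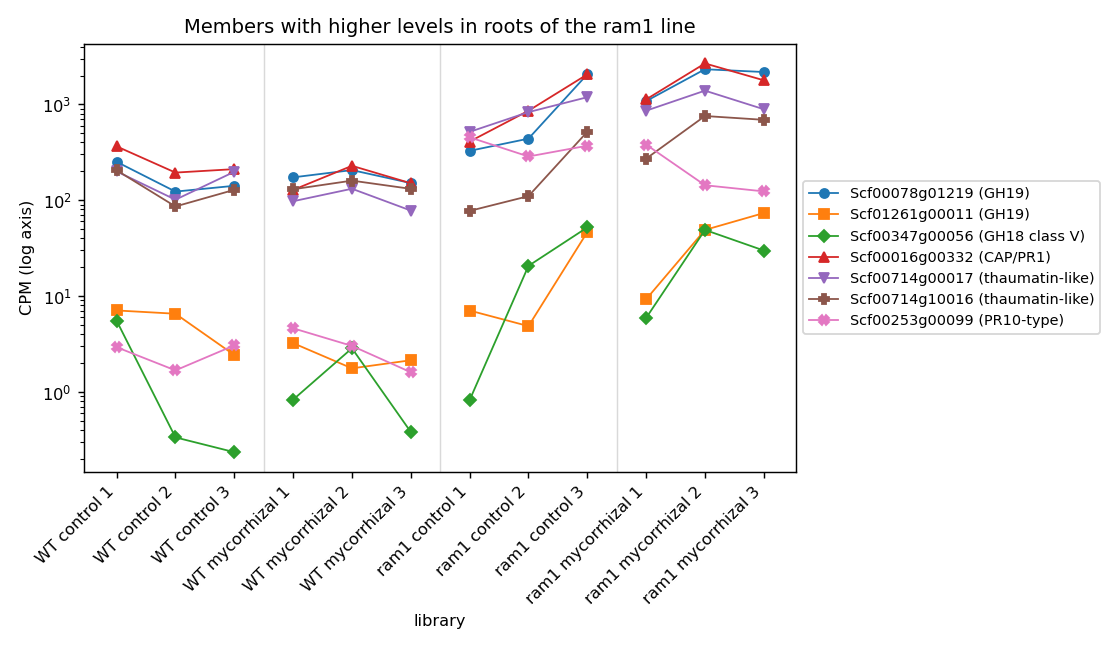
CPM of 7 members, chosen after their values were seen, on a log axis in each of the 12 libraries, with lines joining the libraries of a group (replicates have no order). Every member is higher in mycorrhizal ram1 than in mycorrhizal WT roots, and 6 of them are at their highest of the ram1 controls in replicate 3 and at their lowest of the mycorrhizal ram1 roots in replicate 1.

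Few thaumatin-like genes were called with the fungus. In WT 1 gene rose, Peaxi162Scf00635g00056.1, from 0.406, 1.17 and 0.705 to 3.32, 4.61 and 4.50 CPM (log2 fold change 2.43 ± 0.47 SE at adjusted p = 0.00624), and it had no read in mycorrhizal ram1 roots. Peaxi162Scf00328g00826.1 fell in WT from 25.5, 26.5 and 19.1 to 15.5, 17.9 and 17.2 CPM (log2 fold change -0.49 ± 0.15 SE at adjusted p = 0.0426), a call lost under 10 of 18 alternative settings, among them without any 1 of WT control replicates 1 and 2, WT mycorrhizal replicates 1, 2 and 3, ram1 control replicates 1 and 2 or ram1 mycorrhizal replicate 2 (adjusted p 0.0558 to 0.139). Peaxi162Scf00714g00014.1, the most abundant member of this family, had 1033, 604 and 1156 CPM in WT controls and 564, 743 and 428 CPM in mycorrhizal WT roots, which was not called (log2 fold change -0.69 ± 0.31 SE at adjusted p = 0.141). Peaxi162Scf01294g00032.1 fell in ram1, from 175, 204 and 152 to 122, 65.1 and 85.7 CPM (log2 fold change -0.96 ± 0.21 SE at adjusted p = 0.0231), and the call was lost with only the 6 ram1 libraries and without ram1 control replicate 1 or 2 or ram1 mycorrhizal replicate 2 or 3 (adjusted p 0.0689 to 0.0909). Between the control roots 6 of 23 tested thaumatin-like genes were higher in ram1 and 3 lower, 39.1% in all, where 36.3% of all genes tested were called. Only 68.2% of the reads of Peaxi162Scf00714g00014.1 and 68.4% of those of Peaxi162Scf00714g00017.1 mapped to a single gene.

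The CAP/PR1 gene that fell in WT, Peaxi162Scf00016g03346.1, went from 6.10, 10.3 and 10.7 to 6.18, 3.77 and 2.67 CPM (log2 fold change -1.11 ± 0.33 SE at adjusted p = 0.0346). It had 3.78, 3.00 and 5.42 CPM in ram1 controls and 5.14, 6.37 and 4.70 CPM in mycorrhizal ram1 roots. The WT groups overlapped, and the call was lost with only the 6 WT libraries, with the replicate number as a block, and without WT control replicate 2 or 3 or WT mycorrhizal replicate 2 or 3 (adjusted p 0.0522 to 0.120).

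The LysM genes that rose most in WT are short, undescribed genes of 243 to 372 bases that carry a LysM domain and no kinase. Peaxi162Scf00089g01522.1 went from 0.244, 0.419 and 0.470 to 399, 331 and 421 CPM in WT (log2 fold change 9.95 ± 0.28 SE at adjusted p = 5.16e-09). It had 0.0821, 0.385 and 0.297 CPM in ram1 controls and 0.545, 0.849 and 0.905 CPM in mycorrhizal ram1 roots. Peaxi162Scf00779g00008.1 went from 0 reads to 104, 99.2 and 105 CPM in WT, at least 1269-fold higher, and reached 1.63, 2.55 and 1.63 CPM in ram1. Peaxi162Scf00485g00072.1 and Peaxi162Scf00007g00263.1 had 1 read each over WT controls and reached 98.2, 80.1 and 97.4 CPM and 68.8, 54.7 and 69.3 CPM in WT. In mycorrhizal ram1 roots they had 0.0778, 0.283 and 0.181 CPM and 0.545, 2.97 and 1.81 CPM. All 4 were called higher in ram1 too, but the calls of Peaxi162Scf00089g01522.1 and Peaxi162Scf00485g00072.1 were lost under 13 of 17 and 14 of 17 alternative settings, among them without any 1 of ram1 control replicates 1, 2 and 3 or ram1 mycorrhizal replicates 2 and 3 (adjusted p 0.0514 to 0.203). The response differed between the lines for Peaxi162Scf00089g01522.1 (log2 fold change -8.45 ± 0.69 SE at adjusted p = 4.66e-05) and Peaxi162Scf00779g00008.1 (log2 fold change -8.83, adjusted p = 0.00584, or -8.01 without ram1 control replicate 3).

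The other 4 LysM genes called in WT carry a kinase domain, and their fitted log2 fold changes lay between -0.96 and 1.15. Peaxi162Scf00948g00026.1 rose in WT from 31.6, 34.9 and 33.6 to 65.1, 79.6 and 77.4 CPM (log2 fold change 1.15 ± 0.22 SE at adjusted p = 0.00366). Peaxi162Scf00178g00310.1 rose in both lines, from 78.7, 68.8 and 59.6 to 102, 113 and 127 CPM in WT (log2 fold change 0.72 ± 0.19 SE at adjusted p = 0.0182) and from 49.4, 39.1 and 45.1 to 58.4, 101 and 87.8 CPM in ram1 (log2 fold change 0.88 ± 0.19 SE at adjusted p = 0.0209). Its rise in ram1 was 84.5% of that in WT on the CPM scale, against 0.133% to 2.72% for the 4 short genes. The call in WT was lost without WT control replicate 2 or 3 or WT mycorrhizal replicate 2 or 3 (adjusted p 0.0506 to 0.0772). That in ram1 was lost with only the 6 ram1 libraries and without ram1 control replicate 1 or 2 or ram1 mycorrhizal replicate 2 or 3 (adjusted p 0.0504 to 0.0893). Peaxi162Scf00842g00216.1 fell in WT from 2.28, 3.35 and 2.90 to 1.66, 1.59 and 1.15 CPM (log2 fold change -0.96 ± 0.22 SE at adjusted p = 0.0108). Peaxi162Scf00535g00125.1 fell from 90.3, 76.2 and 75.8 to 43.2, 46.8 and 36.8 CPM in WT. In ram1 it had 85.0, 61.9 and 87.9 CPM in controls and 119, 113 and 81.8 CPM in mycorrhizal roots, and the response differed between the lines (log2 fold change 1.35 ± 0.24 SE at adjusted p = 0.00762).

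Other defense genes were taken as lists from the annotation, and their counts are read against the 12.6% of all genes tested that rose and the 9.14% that fell in WT. Of 42 tested beta-1,3-glucanase genes, enzymes that act with chitinases on fungal walls, 0 rose with edgeR, at an unadjusted p under 0.05 or with DESeq2, and 5 (11.9%) fell in WT. In ram1 0 rose with edgeR (3 at an unadjusted p under 0.05 and 1 with DESeq2) and 3 fell (7.14%, where 5.17% of all genes tested fell). Of 4 tested defensin-like genes 1 fell in WT, and 0 rose with edgeR, at an unadjusted p under 0.05 or with DESeq2. The gene that fell, Peaxi162Scf00088g01111.1, went from 51.0 ± 2.27 to 17.8 ± 5.18 CPM (mean ± SD, n = 3, log2 fold change -1.52, SE 0.31, edgeR adjusted p = 0.00482). It had 70.0 ± 33.0 and 71.0 ± 11.4 CPM in ram1 controls and mycorrhizal roots. Of 70 tested WRKY transcription factor genes 3 (4.29%) rose and 8 (11.4%) fell in WT. The shares of glucanase and WRKY genes that fell thus lay near that of all genes tested. Of 20 genes listed as peptidase inhibitors 1 rose, and of 5 polygalacturonase inhibitor genes 2 rose. The former, Peaxi162Scf00880g00321.1, is described as inter-alpha-trypsin inhibitor heavy chain-related and was listed by that wording alone. Whether it inhibits a peptidase was not tested. Of 4 genes of salicylic acid signalling 1, an NPR1 gene, fell (log2 fold change -0.46, adjusted p = 0.0358). No gene matched the list of barwin, hevein and PR4 proteins. In WT the median log2 fold change was -0.19 over the glucanase genes and -0.25 over the WRKY genes, against -0.002 over all genes tested.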

How the data were processed

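RNA-seq of petunia roots was analysed from the per-library tables of read counts that the authors deposited. The authors aligned reads to Petunia axillaris transcripts with CLC Genomics Workbench, requiring 0.9 of a read to match at a similarity of 0.9, kept reads with up to 10 hits, and counted intact pairs as 2 and broken pairs as 1. The deposited count columns are total and unique gene reads, and RPKM is the authors' value per transcript length and library total. The methods name Baggerly's proportion test. Columns with the authors' comparisons (fold changes and p-values) were not used, and replicated counts were tested with edgeR instead.

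Total gene reads of 12 libraries (3 per group, 7152267 to 13391147 reads) were scaled by TMM and fitted in 1 quasi-likelihood model of the 4 groups in edgeR 4.0.16 (R 4.3.3), with 5 contrasts. Genes with a mean of 10 reads in at least 1 group were tested, and p-values were adjusted by Benjamini-Hochberg over all 22954 of them. SE is the log2 fold change divided by the square root of F. Folds from a group without reads took 3 reads in that group as the lower limit, and 1 to 3 reads give a ratio with an exact binomial 95% interval, both for counting error only. Both treat each read as a separate draw, although intact pairs were counted as 2. The intervals can thus be too narrow and the minimum folds too high. P-values weigh a difference against the spread between these samples, which was estimated over all 4 groups together. No 2 libraries of the same group agreed within sampling noise. The tests were also tried on simulated data, the outcome of which is not given here. DESeq2 1.42.0, its size factors, unique reads, no filter, only 6 libraries, a replicate block and leaving out each library were alternatives. Classes came from the InterPro, GO and description columns.

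Named members were drawn from, per class, up to 12 with the smallest p that passed in WT, up to 4 that passed in each other comparison, the 3 with the highest RPKM, and their neighbours on scaffolds with at least 3 members of the class. Not all of these are described, and members from outside this choice are marked as named after their values were seen. From each list of other defense genes up to 2 are named. The members, lists and tests were chosen with earlier results of these data known. No sequence is shown.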

Additional observations from a re-analysis of the deposited data

Results flagged for a closer look

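The response to the fungus differed between the lines, in the interaction test of edgeR, for 20 of the 116 tested members, 5 higher in ram1 (4.31%) and 15 lower (12.9%), where 4.03% of all genes tested were higher and 5.17% lower. Values are the log2 fold change in ram1 minus that in WT. Among class III chitinases it was -9.86 for Peaxi162Scf01254g00005.1, -7.44 for Peaxi162Scf00836g00035.1, -6.70 for Peaxi162Scf00411g00083.1, -6.22 for Peaxi162Scf00836g00311.1 and -4.21 for Peaxi162Scf00616g00611.1. The value of Peaxi162Scf00836g00311.1 was -8.38 without ram1 mycorrhizal replicate 1 and -5.62 without replicate 3 of that group, and that of Peaxi162Scf00836g00035.1 was -8.48 without WT control replicate 3 and -10.35 without ram1 mycorrhizal replicate 2. Leaving out 1 library ended the call of Peaxi162Scf00836g00311.1 without ram1 control replicate 1, and that of Peaxi162Scf00616g00611.1 without any 1 of WT control replicates 1, 2 and 3, WT mycorrhizal replicates 1, 2 and 3 or ram1 control replicates 1, 2 and 3 (adjusted p 0.0505 to 0.110). Among class V chitinases it was -7.54 for Peaxi162Scf00347g00041.1, -1.55 for Peaxi162Scf00347g00418.1 and 2.67 for Peaxi162Scf00347g00420.1, and it was -2.16 for the GH19 gene Peaxi162Scf00568g00520.1. The call of Peaxi162Scf00347g00041.1 was lost without ram1 control replicate 1 or 2 (adjusted p 0.0766 and 0.0807).

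Among PR10-type genes the difference was -8.17 for Peaxi162Scf00442g00313.1, -3.76 for Peaxi162Scf00073g01326.1, -3.53 for Peaxi162Scf00073g00917.1 and -2.32 for Peaxi162Scf00372g00122.1. Among LysM genes it was -8.83 for Peaxi162Scf00779g00008.1, -8.45 for Peaxi162Scf00089g01522.1, -3.56 for Peaxi162Scf00420g00445.1, 1.35 for Peaxi162Scf00535g00125.1 and 0.89 for Peaxi162Scf01416g00014.1. It was 0.65 for the thaumatin-like gene Peaxi162Scf00362g00852.1, whose call was lost under 8 of 17 alternative settings, and 1.25 for Peaxi162Scf01056g10028.1, described as an endo-beta-glucanase. Peaxi162Scf00420g00445.1 had 0.650, 0.670 and 0.313 CPM in WT controls and 1.38, 0.754 and 1.68 CPM in mycorrhizal WT roots, against 2.71, 4.31 and 1.34 CPM in ram1 controls and 0.700, 0.424 and 0.452 CPM in mycorrhizal ram1 roots.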

How the results depend on the processing

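No direction turned under any alternative: of 3734 values that 209 called changes of members took under up to 18 alternatives, 3440 kept the call and 294 lost it. For chitinases, 7 were called in ram1 (3 with only the 6 ram1 libraries, where 2 of the 7 were under the read filter), 9 for the difference in response, and 7 between controls (4 with only the 6 control libraries, where 1 of the 7 was under it). For PR10-type genes, 4 were called for the difference in response and 7 with DESeq2. Leaving out 1 library at a time gave 13 to 15 chitinases called in WT, 6 to 11 in ram1 (11 without ram1 control replicate 3), 4 to 11 for the difference in response (4 without ram1 control replicate 1 or 2, 11 without ram1 control replicate 3), 5 to 7 between controls and 19 to 21 between mycorrhizal roots. For PR10-type genes it gave 10 to 12, 9 to 15 (15 without ram1 mycorrhizal replicate 1), 3 to 6, 16 to 23 and 21 to 23. The causes were not tested. Correlations of deviations from group means were -0.225 to 0.36 for same-numbered libraries and -0.434 to 0.365 for the other pairs from different groups. With 3 libraries per group, where a single library can dominate, these values cannot decide whether the numbers pair the samples. With the replicate number as a block, 14, 7, 7, 7 and 20 chitinases and 12, 11, 5, 19 and 24 PR10-type genes were called in WT, in ram1, for the difference in response, between controls and between mycorrhizal roots. Genes with almost no control reads have fitted fold changes that depend on the prior count, and of the 30 members under a mean of 10 reads in every group, 6 were called in 1 comparison each when no filter was used.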
